A study of Mus musculus with 3 samples.

Results

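In a liver data set where most hepatocyte barcodes carried no transcript of 8 interferon-stimulated genes, a small set carried several at once. These interferon-high hepatocyte barcodes, called members here, were selected on measured values: a droplet barcode was a member if at most 40% of its UMIs (unique molecular identifiers, each counting 1 captured RNA molecule) were mitochondrial, if it had fewer than 2 UMIs over 11 genes of other liver cell types, and if it had at least 3 UMIs summed over Isg15, Ifit1, Ifit3, Rsad2, Usp18, Ifi44, Oasl2 and Irf7. In all, 217 of 26338 hepatocyte barcodes and of 30000 barcodes in the series were members. The library labelled Adar1 flox/flox held 197 of them, the library labelled wt/flox held 13 and the library labelled wt/wt held 7. Within each library they were set beside the zero barcodes, the hepatocyte barcodes with 0 UMIs of the 8 genes, which numbered 5630 in flox/flox, 7995 in wt/flox and 8612 in wt/wt.

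All livers came from male C57BL/6 mice of 9 weeks that lacked Ifih1 (Ifih1-/-) and carried Alb-Cre (Alb-Cre+), a recombinase driven by the albumin promoter and so active in hepatocytes and cells of the same lineage. The mice differed in Adar1, with both alleles floxed (flox/flox), 1 floxed allele (wt/flox) or none (wt/wt), and each genotype gave 1 library from a perfused, collagenase-digested and Percoll-enriched liver. With 1 library per genotype, and with members chosen on the values of the same barcodes, no test was made: the intervals given are exact 95% intervals that cover counting error only, and barcodes of 1 library are not replicates. Ifih1 gave 0 UMIs in hepatocyte barcodes of either kind in flox/flox and wt/wt, and 1 UMI in the zero barcodes of wt/flox. Adar, the targeted gene (ENSMUSG00000027951, mm10 chromosome 3, 89715022 to 89753446), stood at 37.4 CPM (the gene's UMIs scaled to the total UMIs of the group) in zero barcodes of the library labelled flox/flox, at 18.0 CPM in those of wt/flox and at 10.2 CPM in those of wt/wt, against the order of the labels. The 3' kit counts the end of a transcript and the floxed exons are not given in the labels, so these levels do not check the genotype, and each library is named by its label throughout. The deposited UMIs summed to 10756790 in flox/flox, 10067929 in wt/flox and 9744380 in wt/wt.

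Type I and type III interferons bind receptors on hepatocytes, and the kinases JAK1 and TYK2 then activate a transcription factor complex that includes IRF9. This complex binds the interferon-stimulated response element in gene promoters and turns on a broad antiviral programme. ADAR1 edits adenosines in double-stranded RNA, and in its absence unedited self RNA can trigger the sensor MDA5, the product of Ifih1, so that the interferon response of ADAR1-deficient tissue is usually strongly reduced without MDA5. Of the genes of the rule, Isg15 encodes a ubiquitin-like modifier and Usp18 the protease that removes it and damps receptor signalling. Ifit1 and Ifit3 encode tetratricopeptide proteins that bind foreign RNA, Rsad2 encodes viperin, which makes a chain-terminating nucleotide, Ifi44 and Oasl2 encode antiviral proteins, and Irf7 encodes a transcription factor that amplifies interferon production.

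The promoters of the 4 rule genes with a match to the core letters of that element are printed with that of Cxcl10, which headed the genes ranked by their ratio in flox/flox members. The bases before the annotated start (RefSeq, GRCm38.p6, the same coordinates as mm10, 250 bases each) are given 5′ to 3′ on the gene's own strand, with each match of GAAANNGAAA or of its reverse complement TTTCNNTTTC in capitals. Isg15 lies at chr4:156200819-156201068 (minus strand), Ifit1 at chr19:34640639-34640888 (plus), Ifit3 at chr19:34583279-34583528 (plus), Rsad2 at chr12:26456453-26456702 (minus) and Cxcl10 at chr5:92348890-92349139 (minus).
Isg15: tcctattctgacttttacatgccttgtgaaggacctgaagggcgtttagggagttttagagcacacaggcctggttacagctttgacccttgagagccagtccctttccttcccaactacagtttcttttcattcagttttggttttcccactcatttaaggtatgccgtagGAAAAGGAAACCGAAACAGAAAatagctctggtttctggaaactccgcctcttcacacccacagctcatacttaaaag
Ifit1: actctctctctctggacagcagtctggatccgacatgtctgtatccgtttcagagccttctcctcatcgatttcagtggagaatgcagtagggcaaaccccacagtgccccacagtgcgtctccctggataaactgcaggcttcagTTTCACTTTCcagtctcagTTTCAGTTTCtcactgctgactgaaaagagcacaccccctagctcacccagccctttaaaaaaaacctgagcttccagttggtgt
Ifit3: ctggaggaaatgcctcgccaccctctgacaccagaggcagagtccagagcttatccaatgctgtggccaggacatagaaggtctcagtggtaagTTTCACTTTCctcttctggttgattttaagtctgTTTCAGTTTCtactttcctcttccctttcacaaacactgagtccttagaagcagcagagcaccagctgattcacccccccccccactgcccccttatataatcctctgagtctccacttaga
Rsad2: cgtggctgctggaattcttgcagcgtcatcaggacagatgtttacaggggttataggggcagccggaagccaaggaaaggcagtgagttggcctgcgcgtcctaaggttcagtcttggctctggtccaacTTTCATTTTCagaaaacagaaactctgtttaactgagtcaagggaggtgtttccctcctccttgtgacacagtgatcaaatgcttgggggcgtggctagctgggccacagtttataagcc
Cxcl10: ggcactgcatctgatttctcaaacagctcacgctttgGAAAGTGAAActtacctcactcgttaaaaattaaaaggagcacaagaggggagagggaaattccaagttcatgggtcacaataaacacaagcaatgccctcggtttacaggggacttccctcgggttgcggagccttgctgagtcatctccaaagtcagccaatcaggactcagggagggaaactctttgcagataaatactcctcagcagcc
Isg15 had 3 overlapping matches, Ifit1 and Ifit3 had 2 each, and Rsad2 and Cxcl10 had 1 each. Windows running from 250 bases before to 50 bases after the start were available for 7 of the 8 rule genes and 4 of these held a match, and for 51 of the 69 interferon-stimulated genes outside the rule, of which 24 held a match. Over all 27025 genes with a window, 1079 (3.99%) held a match in at least 1. The windows of Ifi44, Oasl2 and Irf7 held none, and Usp18 was not matched to a window. A match is a run of letters and no measurement of binding.

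Members made up 2.27% of hepatocyte barcodes in the library labelled flox/flox (interval 1.97 to 2.60), 0.150% in wt/flox (0.0797 to 0.256) and 0.0780% in wt/wt (0.0314 to 0.161). The rule sums few counts, so most members sat at its edge: 129 of the 197 flox/flox members had exactly 3 rule UMIs and 38 had 4, against 585 barcodes just outside with 2. In wt/flox 6 members had 3 UMIs and 43 barcodes had 2, and in wt/wt 4 members had 3 UMIs and 13 barcodes had 2. Beyond this edge a thin tail reached far higher, with 13 flox/flox, 2 wt/flox and 1 wt/wt barcodes at 8 or more rule UMIs. Members held 19.8% of all rule UMIs of hepatocyte barcodes in flox/flox, 10.0% in wt/flox and 10.3% in wt/wt, so that the larger part of this RNA lay in barcodes with 1 or 2 UMIs. The mean was 0.494 rule UMIs per hepatocyte barcode in flox/flox, 0.0919 in wt/flox and 0.0455 in wt/wt. How many barcodes would reach 3 rule UMIs by counting at such a mean alone was not tested, so members are not shown to be a distinct kind of cell.

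**Figure D1:**
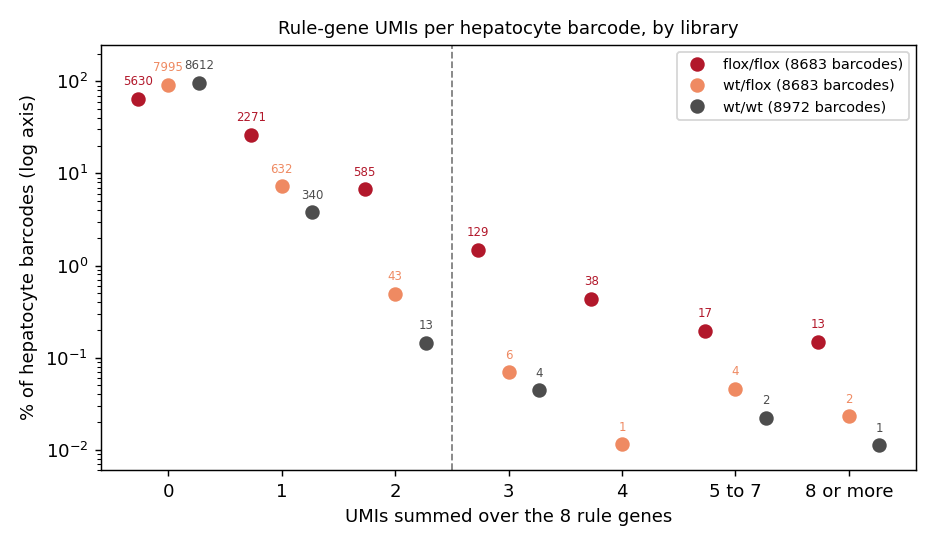
Share of hepatocyte barcodes (log axis, %) by the number of UMIs summed over the 8 rule genes, for the flox/flox, wt/flox and wt/wt libraries; the number beside each point counts barcodes, a bin without a barcode has no point, and members lie right of the dashed line. All 3 libraries have barcodes at 8 or more rule UMIs (13, 2 and 1), while the flox/flox points lie above the others in every bin from 1 upward.

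Depth moved with membership, and the shares are therefore given again at a fixed depth. The median member had 1384 UMIs in flox/flox, 1167 in wt/flox and 1200 in wt/wt, and the median zero barcode 881, 874 and 833. With every barcode thinned to 1000 UMIs, and 5975, 6374 and 6769 shallower barcodes of the 3 libraries left out, members were 1.88% of 3405 hepatocyte barcodes in flox/flox (1.45 to 2.39), 0.236% of 2963 in wt/flox (0.0950 to 0.486) and 0.182% of 2752 in wt/wt (0.0590 to 0.423). In the thinned barcodes the mean was 0.469, 0.112 and 0.0534 rule UMIs for flox/flox, wt/flox and wt/wt. The ratio of variance to mean was 1.98, 2.51 and 2.81. These are the counts that chose the members, so the ratio is a description. Barcodes with many rule UMIs weigh heavily in it. For a frame of reference outside hepatocytes, 10.9% of 1091 non-hepatocyte barcodes in flox/flox (median 1121 UMIs) had at least 3 rule UMIs, 1.54% of 1237 in wt/flox (median 1066) and 0.662% of 906 in wt/wt (median 1037.5).

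The rule genes were not equally common among members. In flox/flox, Irf7 was seen in 46.7% of the 197 members (39.6 to 53.9), Isg15 in 44.7%, Ifit1 in 40.6%, Ifi44 in 36.0%, Usp18 in 35.5%, Ifit3 in 30.5%, Rsad2 in 25.4% and Oasl2 in 14.2% (9.66 to 19.9). The intervals of each pair of neighbours in this order overlapped. In wt/flox, Rsad2 was seen in 76.9% of 13 members (46.2 to 94.96), Isg15 in 69.2%, Ifit1 in 53.8% and Irf7 in 7.69% (0.195 to 36.0). In wt/wt, Isg15 was seen in 71.4% of 7 members (29.0 to 96.3), and Ifit1, Rsad2 and Irf7 in 57.1% each. Ifi44 and Oasl2 gave 0 UMIs in the 7 wt/wt members, which allows up to 42.9% of members with a UMI by a limit of 3 counts. These levels chose the members and are a description.

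**Figure D2:**
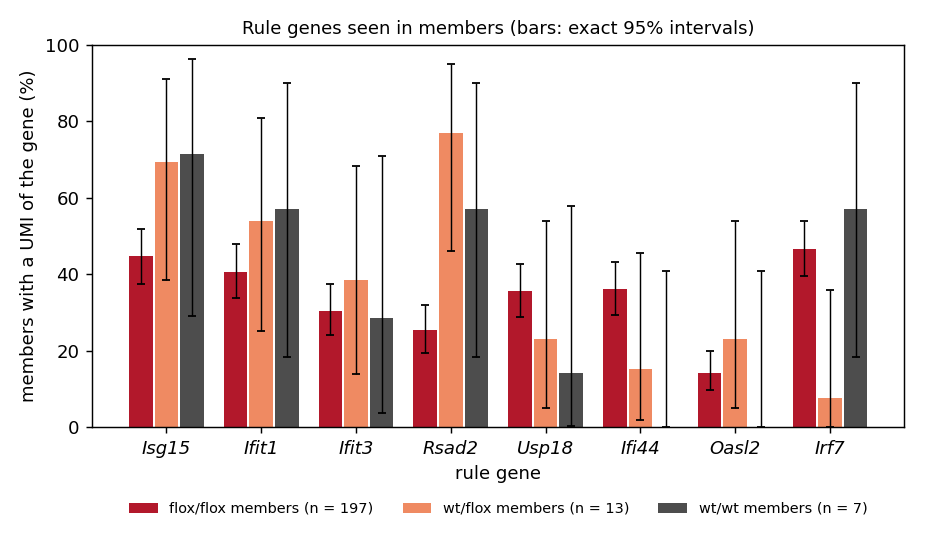
Percentage of members with at least 1 UMI of each rule gene in the flox/flox, wt/flox and wt/wt libraries; bars start at 0 and black lines are exact 95% binomial intervals. In flox/flox the shares run from 14.2% for Oasl2 to 46.7% for Irf7, while the 13 wt/flox and 7 wt/wt members leave wide intervals.

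Most members carried a few of the 8 genes. In flox/flox 11 members held UMIs of 1 rule gene, 69 of 2, 93 of 3, 15 of 4, 5 of 5, 3 of 6 and 1 of all 8. The genes also differed in how far their RNA was concentrated in members: of all UMIs in flox/flox hepatocyte barcodes, members held 40.4% of those of Ifit3 (mm10 chromosome 19, 34583531 to 34588731), 31.0% of Rsad2 (chromosome 12, 26442746 to 26456452), 23.9% of Ifit1 (chromosome 19, 34640871 to 34650009) and 22.03% of Isg15 (chromosome 4, 156199424 to 156200818). The shares were lower for Oasl2 (15.0%), Ifi44 (14.6%), Irf7 (14.6%) and Usp18 (12.9%). Ifit3 and its near-identical neighbour Ifit3b share sequence, so that reads could have been split between them.

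The barcodes with the most rule UMIs show what the far end of the response looks like. The highest flox/flox member had 71 rule UMIs of 4796, with 37 of Ifit1, 21 of Ifit3, UMIs of all 8 genes and 76 UMIs of interferon-stimulated genes outside the rule. The next had 39 rule UMIs of 1575, with 24 of Rsad2 and 10 of Ifit1, and the third had 17 of 1019, spread over 6 genes. A further 7 flox/flox members had 9 rule UMIs and 3 had 8. The highest wt/flox member had 27 rule UMIs of 1590, with 16 of Rsad2, 5 of Usp18 and 4 of Ifit3, and the highest wt/wt member had 19 of 1200, with 7 of Rsad2 and 4 of Ifit1. Barcodes of this kind thus occurred in all 3 libraries, and different rule genes led in them. None of the 13 flox/flox, 2 wt/flox and 1 wt/wt members with 8 or more rule UMIs held a UMI of 33 further markers of other liver cells. The highest flox/flox member held 5 UMIs of Alb, and 12 hepatocyte markers made up 1.67% of its UMIs. The median share of these markers was 4.91% in the 13 flox/flox members, 5.78% in flox/flox zero barcodes and 2.48% in flox/flox non-hepatocyte barcodes. The hepatocyte identity of that highest member is thus weak by these markers.

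Members are called hepatocyte barcodes here because the rule limits markers of other cells, and they held fewer hepatocyte transcripts and more markers of other cells than the zero barcodes. Alb, encoding albumin, was seen in 100% of members and of zero barcodes in each library, but also in 99.9% of non-hepatocyte barcodes in flox/flox and in 100% of them in wt/flox and wt/wt, so that its presence does not tell the cells apart. A set of 12 hepatocyte markers made up a median of 4.68% of a member's UMIs in flox/flox, 3.37% in wt/flox and 5.14% in wt/wt, against 5.78%, 5.74% and 7.01% in zero barcodes. In non-hepatocyte barcodes this median was 2.48% in flox/flox, 3.41% in wt/flox and 3.96% in wt/wt, so that wt/flox members lay at the level of those barcodes. A UMI of the 33 further markers, a list for macrophages, lymphocytes, neutrophils, endothelial, stellate and bile duct cells, was seen in 18.8% of flox/flox members (13.6 to 24.9), 61.5% of wt/flox members (31.6 to 86.1) and 28.6% of wt/wt members (3.67 to 71.0), against 12.3%, 12.9% and 9.48% of zero barcodes. Summed over these markers, members held 261 UMIs in flox/flox, 33 in wt/flox and 13 in wt/wt, and the log2 ratio of members over zero barcodes was 0.78 (0.59 to 0.96), 1.86 (1.32 to 2.36) and 2.20 (1.29 to 2.98) in the 3 libraries. At least 5 such UMIs were held by 12 flox/flox, 2 wt/flox and 1 wt/wt members. Cd3e, a T-cell gene, was seen in 0 flox/flox, 2 wt/flox and 0 wt/wt members. The median mitochondrial share was 5.38%, 4.07% and 6.34% in members, against 8.09%, 4.06% and 4.93% in zero barcodes. Doublets were not removed, and 2 members shared a barcode sequence with another library. The part of these differences in the results below was not tested, and key values are given again for members without any of the 33 markers.

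Splitting the rule shows how far its genes went together in the same barcodes. When flox/flox barcodes were chosen on Isg15, Ifit1, Ifit3 and Rsad2 alone (at least 2 UMIs, 209 barcodes), the other 4 genes, Usp18, Ifi44, Oasl2 and Irf7, stood at 357 CPM, against 251 CPM in the 7204 barcodes with 0 UMIs of the first 4, a log2 ratio of 0.51 (0.22 to 0.78). The gene-wise log2 ratios were 1.08 for Oasl2, 0.72 for Usp18, 0.56 for Ifi44 and 0.10 for Irf7, the last with an interval of -0.45 to 0.60. Chosen the other way round, on Usp18, Ifi44, Oasl2 and Irf7 (334 barcodes), the first 4 genes stood at 499 CPM, against 187 CPM in 6713 zero barcodes, a log2 ratio of 1.41 (1.21 to 1.61), with Ifit3 at 2.48 and Isg15 at 0.72. In wt/flox the same 2 ratios were 3.17 (2.25 to 3.97, 35 barcodes) and 5.18 (4.54 to 5.76, 11 barcodes), and in wt/wt 4.30 (2.83 to 5.45, 14 barcodes) and 7.35 (6.52 to 8.08, 4 barcodes). Single barcodes carried much of these counts: in the second choice, 64 of 248 UMIs lay in 1 barcode in flox/flox, 21 of 25 in wt/flox and all 16 in wt/wt. In the first choice the fullest barcode held 7 of 113 UMIs in flox/flox, 6 of 13 in wt/flox and 3 of 6 in wt/wt. The wt/flox and wt/wt ratios of the second choice thus describe at most 2 barcodes a library.

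Interferon-stimulated genes outside the rule were higher in members than in zero barcodes of each library. Of a list of 69 such genes 66 were in the data, and their summed level was 7430.4 CPM in members and 5575 CPM in zero barcodes of flox/flox, a log2 ratio of 0.41 (0.36 to 0.47). The sums were 11458.5 CPM in members and 3351 CPM in zero barcodes of wt/flox (1.77, 1.57 to 1.98), and 7677 CPM in members and 2669.8 CPM in zero barcodes of wt/wt (1.52, 1.17 to 1.86). The 33 further markers moved the same way, with the ratios of 0.78, 1.86 and 2.20 given above, and their part was not tested. Without barcodes holding any of them, the ratios of the interferon list were 0.40 in flox/flox (160 members left), 1.61 in wt/flox (5 left) and 1.46 in wt/wt (5 left). In non-hepatocyte barcodes this list stood at 9393 CPM in flox/flox, above the members of that library. It stood there at 5935 CPM in wt/flox and 5120 CPM in wt/wt, between the zero barcodes and the members. Zero barcodes of flox/flox already stood above those of wt/flox by 0.73 (0.71 to 0.76) and above those of wt/wt by 1.06 (1.04 to 1.09) on the log2 scale. Between members, flox/flox over wt/flox gave -0.62 (-0.83 to -0.41), which turned to 0.23 when scaled by the median ratio of genes seen in both. Members of flox/flox over those of wt/wt gave -0.05 (-0.38 to 0.31), which became 1.00 under that scaling. That scaling rests on genes seen in both groups. With few members in wt/flox and wt/wt, this lowers the median ratio of flox/flox members over theirs by construction. The order of the members of the 3 libraries in this list thus depends on the scaling and is not settled by these counts.

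In flox/flox this level was higher in each bin of more rule UMIs, and in wt/flox and wt/wt the small upper bins broke that order. In flox/flox the 66 genes stood at 5575 CPM with 0 rule UMIs, 5907 CPM with 1, 6210.4 CPM with 2, 6722 CPM with 3, 7104 CPM with 4, 8949.8 CPM with 5 to 7 and 11978 CPM with 8 or more (10679 to 13390.4). In wt/flox they stood at 3351 CPM with 0, 3574 CPM with 1, 5759 CPM with 2, 6706.5 CPM with 3, 17138 CPM with 4 (1 barcode), 14041 CPM with 5 to 7 (4 barcodes) and 18214 CPM with 8 or more (2 barcodes, 13562 to 23948). In wt/wt they stood at 2669.8 CPM with 0, 2919 CPM with 1, 6058 CPM with 2 and 6830.1 CPM with 3, then lower, at 4061 CPM, in the 2 barcodes with 5 to 7, and the lone barcode with 19 rule UMIs stood at 20833 CPM (13482 to 30754). At the rule's edge, the intervals of barcodes with 3 and with 2 rule UMIs overlapped in each library. In the bin of 8 or more, the flox/flox interval lay below those of wt/flox and wt/wt, which overlapped each other.

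**Figure D3:**
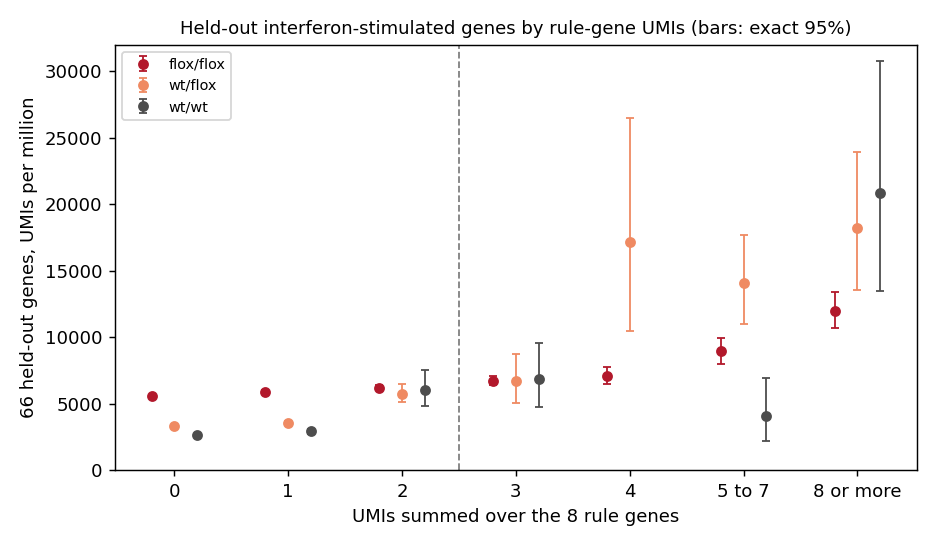
Summed level of the 66 interferon-stimulated genes outside the rule (CPM) by the number of rule UMIs, for the flox/flox, wt/flox and wt/wt libraries; vertical lines are exact 95% Poisson intervals and members lie right of the dashed line. The flox/flox points climb from 5575 to 11978, while the wt/flox and wt/wt points start lower, move unevenly and reach 18214 (2 barcodes) and 20833 (1 barcode) in the last bin.

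Gene by gene, 46 of these 66 genes had at least 100 UMIs in flox/flox hepatocyte barcodes. Their median log2 ratio, members over zero barcodes, was 0.33, and 7 of the 46 were at least 2-fold higher and 0 at least 2-fold lower. Over all 7203 genes at that minimum the median was 0.07, with 2.54% at least 2-fold higher and 3.37% at least 2-fold lower. For 13 of the 46 genes the interval lay above 0 and for none below 0, against 10.2% above 0 and 4.87% below 0 over all 7203 genes. With zero barcodes weighted to the members' depth the median was 0.55 and 8 genes were at least 2-fold higher, and without the 13 members of 8 or more rule UMIs they were 0.32 and 6.

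Relatives and neighbours of the rule genes came next, and of those with at least 100 UMIs Cmpk2 stood highest. Cmpk2, a nucleotide kinase gene that lies beside Rsad2 on chromosome 12 (26469204 to 26479837), had 31 UMIs in 21 flox/flox members. It stood at 89.6 CPM in flox/flox, 345 CPM in wt/flox and 533 CPM in wt/wt members, against 13.0, 8.18 and 3.65 CPM in zero barcodes, with log2 ratios of 2.79 (2.13 to 3.41), 5.401 (3.90 to 6.60) and 7.19 (5.47 to 8.57). Without the members of 8 or more rule UMIs the flox/flox ratio was 2.19. Ifit2, of the Ifit cluster on chromosome 19 (34550694 to 34576419), had 13 UMIs in 11 flox/flox members and a ratio of 3.91 (2.71 to 5.11), and Ifit3b had 17 UMIs in 10 members and a ratio of 3.06 (2.13 to 3.95). Both lay under the minimum of 100 UMIs. Oasl1, a relative of Oasl2 that in mice restrains Irf7 translation, stood at 130.1 CPM in flox/flox members and 42.0 CPM in zero barcodes, a ratio of 1.63 (1.14 to 2.10) that was 1.06 without the members of 8 or more rule UMIs.

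Cxcl10, the gene of a chemokine that draws T cells through CXCR3, was rare but concentrated in members. In flox/flox it had 21 UMIs in 8 members (60.7 CPM), 7 of them in 1 member with 3 rule UMIs of 3891, against 15 UMIs in 14 zero barcodes (2.67 CPM), a log2 ratio of 4.51 (3.48 to 5.57). In wt/flox it had 13 UMIs in 4 members, 9 of them in 1 barcode that also held 12 UMIs of the 33 further markers, against 57 UMIs in zero barcodes. In wt/wt it had 0 UMIs in members, which allows up to 319.9 CPM, against 11 UMIs in zero barcodes. The 8 flox/flox members with Cxcl10 held 0 UMIs of the 33 further markers and 11 to 99 UMIs of Alb. Without barcodes holding any of those markers the flox/flox ratio was 5.04, and without the members of 8 or more rule UMIs it was 3.93.

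Other antiviral genes at least 2-fold higher in flox/flox members were Slfn5 (2.18, 1.31 to 2.97), of the Schlafen family, Daxx (1.33, 0.13 to 2.36), a histone chaperone gene, Parp14 (1.29, 0.79 to 1.76), an ADP-ribosyltransferase gene, Ifi47 (1.18, 0.59 to 1.73), an interferon-inducible GTPase gene, and Trim30a (1.17, 0.57 to 1.73). Parp14 stood at 121 CPM in flox/flox members and 49.7 CPM in their zero barcodes, and in wt/flox at 518 CPM in members and 30.5 CPM in zero barcodes. Rtp4 (0.89, 0.27 to 1.45), Zbp1 (0.86, 0.02 to 1.61), a sensor of Z-form nucleic acids, and Lgals3bp (0.74, 0.18 to 1.25) were higher by less than 2-fold. These are log2 ratios of summed CPM.

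Abundant products had smaller ratios. Ifitm3, which blocks viral entry, stood at 2142 CPM in flox/flox members and 1485 CPM in zero barcodes, a log2 ratio of 0.53 (0.42 to 0.64). The ratio was 0.64 (0.43 to 0.85) for Ifi27, which encodes a small mitochondrial protein, and 0.50 (0.26 to 0.73) for Bst2, which encodes the virion tether tetherin. Ly6e, a surface protein gene that restricts coronaviruses, stood at 977 CPM in flox/flox members and 937 CPM in zero barcodes (0.06, -0.10 to 0.22). In the other libraries Ly6e was 748 CPM in members and 277 CPM in zero barcodes of wt/flox (1.44, 0.52 to 2.21), and 853 CPM in members and 220.1 CPM in zero barcodes of wt/wt (1.95, 0.74 to 2.94). The Ly6e level of flox/flox zero barcodes thus lay within the range of the members of the 3 libraries.

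The following transcription factor and sensor genes of the pathway had intervals that included 0 in flox/flox. Stat2 stood at 43.4 CPM in members and 60.5 CPM in zero barcodes (-0.48, -1.33 to 0.26) and Irf9 at 60.7 CPM in members and 78.9 CPM in zero barcodes (-0.38, -1.08 to 0.25). The RNA sensor gene Ddx58, encoding RIG-I, gave -0.10 (-0.96 to 0.64), Eif2ak2, encoding the kinase PKR, 0.64 (-0.23 to 1.41), and Adar itself -0.11 (-1.08 to 0.73), from 12 UMIs in members.

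**Figure D4:**
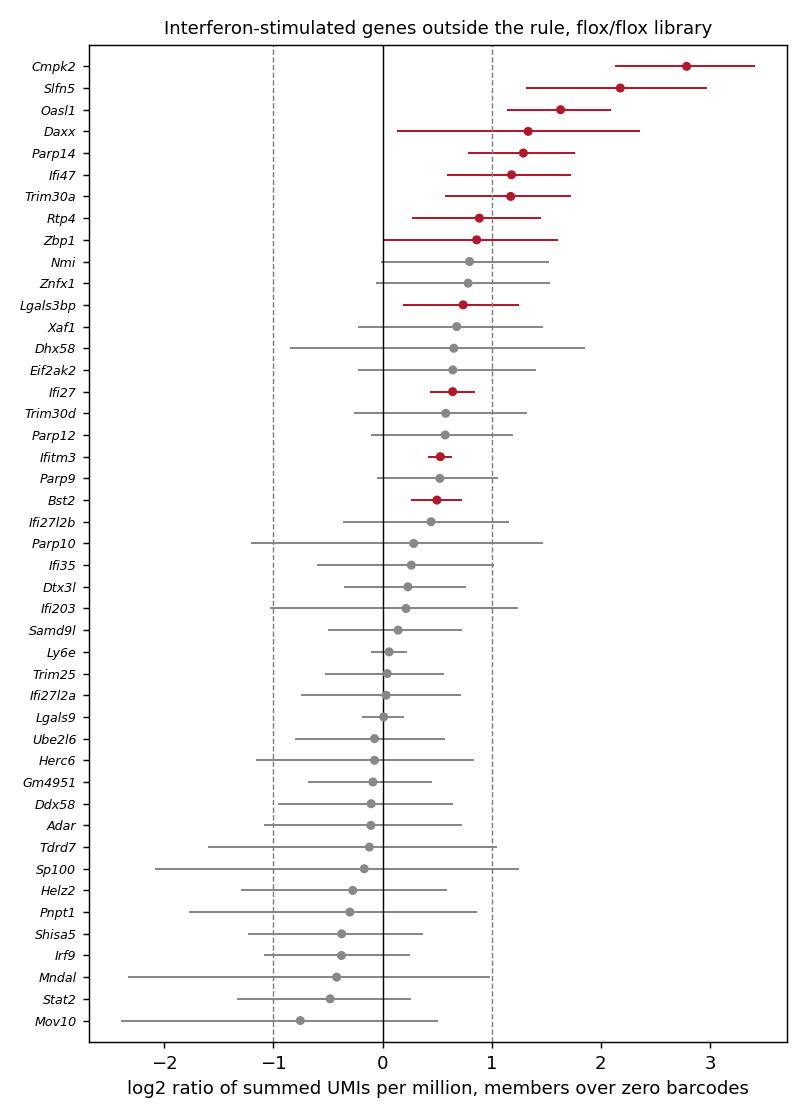
Log2 ratio of summed CPM, members over zero barcodes of the flox/flox library, for 45 of the 46 interferon-stimulated genes outside the rule with at least 100 UMIs; lines are exact 95% intervals, red where the interval lies above 0, and dashed lines mark 2-fold. Cmpk2 at 2.79, Slfn5 at 2.18 and Oasl1 at 1.63 lead, 13 genes are red, and Stat2, Irf9, Ddx58 and Adar lie at or below 0 with wide intervals.

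Genes more closely tied to interferon gamma were also on the higher side in flox/flox members. All 9 measured genes of that list were above 0, with a median log2 ratio of 0.61, beside 0.07 over all genes. The interval lay above 0 for 4 of the 9, beside 10.2% of all genes. At least 2-fold higher were 3 of 9, beside 2.54% of all genes. These were Cxcl9 (1.09, 0.17 to 1.90), another CXCR3 chemokine gene, and the guanylate-binding protein genes Gbp6 (1.08, 0.38 to 1.71) and Gbp7 (1.04, 0.44 to 1.59). Iigp1, the most abundant GTPase gene of the list, stood at 1093 CPM in members and 819.7 CPM in zero barcodes (0.41, 0.26 to 0.57). MHC class I presentation genes did not follow: their 20 measured genes had a median of -0.02, with B2m at 2272.5 CPM in members and 2409.5 CPM in zero barcodes (-0.08, -0.19 to 0.02), H2-K1 at -0.28 (-0.43 to -0.13) and, on the higher side, the proteasome activator genes Psme2 (1.05, 0.52 to 1.54) and Psme1 (0.63, 0.30 to 0.95). Genes of interferon receptors, kinases and adaptors had a median of 0.25 over 10 genes, none at least 2-fold different, with Ifnar2 at 0.43 (-0.16 to 0.97) and Jak1 at 0.05 (-0.44 to 0.50). The 9 interferon genes searched, Ifnb1, Ifna1 and Ifng among them, gave 0 UMIs in members of every library, which allows up to 8.67 CPM for their sum in flox/flox members by a limit of 3 counts.

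Outside the interferon system, genes of hepatocyte function were slightly lower in flox/flox members. Secreted hepatocyte proteins had a median log2 ratio of -0.36 over 28 genes, none at least 2-fold different and 19 with an interval below 0, beside the 4.87% of all genes. Alb stood at 16104 CPM in members and 24261 CPM in zero barcodes (-0.59, -0.63 to -0.55), and Fgg, a fibrinogen chain gene, at 1145 CPM in members and 1905 CPM in zero barcodes (-0.73, -0.88 to -0.59). The small lipoprotein genes Apoa2 (0.18, 0.13 to 0.22) and Apoc3 (0.17, 0.09 to 0.24) were on the other side. The lists of both lobule zones lay below 0: the pericentral list had a median of -0.32 over 14 genes, with Cyp2e1 at -0.56 (-0.71 to -0.41), and the periportal list -0.26 over 18 genes, with Cyp2f2 at -0.68 (-0.87 to -0.50). With zero barcodes weighted to the members' depth those medians were 0.03 and -0.08, and that of the secreted proteins -0.25.

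Outside immunoglobulin and haemoglobin genes, the genes named as lowest by their ratio in flox/flox members were Abcb11, Ugt3a2 and Cyp7a1. Abcb11, encoding the bile salt export pump, stood at 31.8 CPM in members and 105 CPM in zero barcodes (-1.73, -2.74 to -0.88), Ugt3a2, a glycosyltransferase gene, at 43.4 CPM in members and 137 CPM in zero barcodes (-1.66, -2.51 to -0.93) and Cyp7a1, the rate-limiting enzyme of bile acid synthesis, at 23.1 CPM in members and 73.2 CPM in zero barcodes (-1.66, -2.88 to -0.67). The counts behind them were small, with 11, 15 and 8 UMIs in members. Nuclear-retained RNAs were lower too, with a median of -0.79 over 6 genes, Malat1 at 5115 CPM in members and 8721 CPM in zero barcodes (-0.77, -0.84 to -0.70) and Neat1 at 535 CPM in members and 938 CPM in zero barcodes (-0.81, -1.03 to -0.60). Acute phase genes had a median of -0.40 over 19 genes, from Serpina3n at -1.01 (-1.53 to -0.53) to Hamp, encoding the iron hormone hepcidin, at 0.95 (0.85 to 1.06), with 129 of its 833 UMIs in 1 member. Stress response genes had a median of -0.004 over 10 genes, cell death genes 0.19 over 9 and the progranulin and EGF receptor list 0.01 over 8, with Egfr at -0.78 (-1.06 to -0.51). With zero barcodes weighted to the members' depth these medians were -0.27, -0.08 and -0.30, so that the cell death list and the progranulin and EGF receptor list changed sign. For fatty acid and sterol genes the median was -0.17 over 24 genes, with the PPAR-alpha targets Cyp4a14, at 2 UMIs in members and 207 in zero barcodes, and Cyp4a10 (-1.87, -3.75 to -0.49) lowest.

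**Figure D5:**
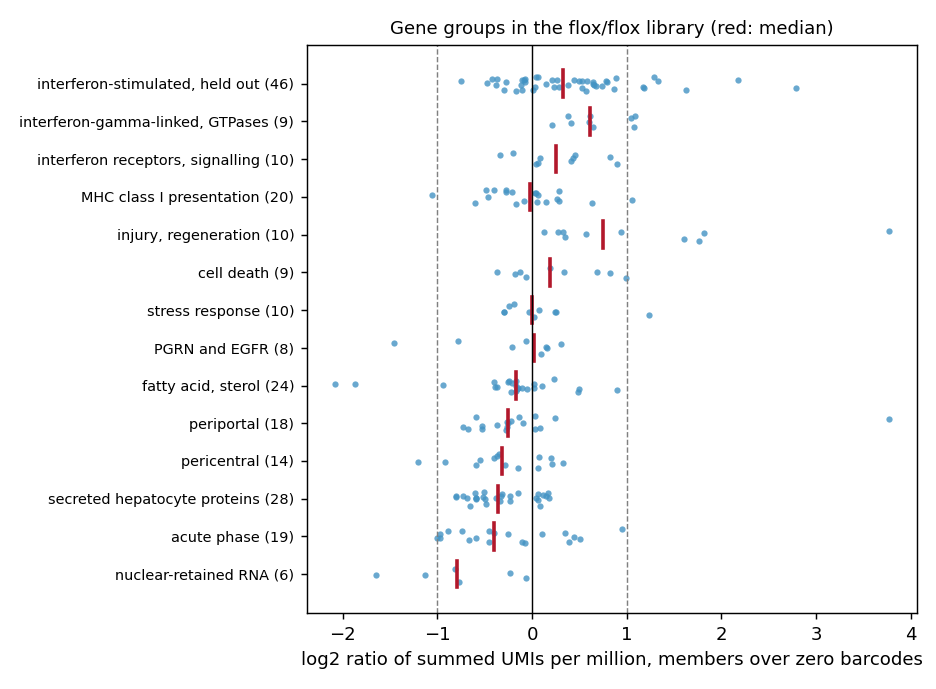
Log2 ratio of summed CPM, members over zero barcodes of the flox/flox library, for the measured genes of 14 lists; each point is a gene, red bars are list medians, the number of genes stands in parentheses and dashed lines mark 2-fold. The interferon gamma list (median 0.61) and the injury list (0.75) lie to the right, MHC class I sits at -0.02 and nuclear-retained RNA at -0.79; Spp1, at 3.77, stands in both the injury and the periportal list.

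Among genes linked to liver injury and bile ducts, the RNA of the one with the highest ratio lay in few members. The injury and regeneration list had a median log2 ratio of 0.75 over 10 genes, 4 of them at least 2-fold higher, beside 2.54% of all genes. The interval lay above 0 for 6 of the 10, beside 10.2% of all genes. Spp1, encoding osteopontin (chromosome 5, 104435118 to 104441050), led with 483 CPM in flox/flox members and 35.4 CPM in zero barcodes (3.77, 3.46 to 4.07), but its 167 UMIs lay in 10 members, 73 of them in 1. These 10 members were deep, with 1287 to 4411 UMIs, had 3 to 6 rule UMIs, 7 to 35 UMIs of Alb and, in 8 of 10, 0 UMIs of the 33 further markers. The 12 hepatocyte markers made up 1.20% to 5.62% of their UMIs, against medians of 4.68% in all flox/flox members and 5.78% in zero barcodes. Of the 10, 5 also held Sox9, a ductal transcription factor gene that is not among the 33 markers, and 8 held Mfge8, and 1 held 1 UMI each of the bile duct markers Epcam and Krt7. In wt/flox all 27 UMIs of Spp1 lay in 1 member of 3246 UMIs, which held 2 UMIs of Epcam. With zero barcodes weighted to the members' depth the flox/flox ratio of Spp1 was 1.41. The other genes of the list at least 2-fold higher were Vim (1.82, 1.04 to 2.53), Anxa2 (1.76, 0.61 to 2.76) and Sox9 (1.60, 0.83 to 2.30), and Krt8, a keratin of hepatocytes and ducts, gave 0.57 (0.33 to 0.80). Spp1 and its members were singled out after their values were seen.

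Some of the highest and lowest ratios belong to other cells. Ptprb, an endothelial phosphatase gene, had 22 UMIs in 11 flox/flox members (2.504, 1.73 to 3.22), H2-Ab1, an MHC class II gene, 55 UMIs in 12 members (1.38, 0.94 to 1.80; 0.68 with depth weighting) and Maf 47 UMIs in 22 members (1.72, 1.23 to 2.18; 0.82 without barcodes of the further markers). The 8 Kupffer cell markers together had 39 UMIs in 11 flox/flox members, 14 of them in 1, a log2 ratio of 1.32 (0.79 to 1.81), and were at 0 in wt/flox and wt/wt members. Of these 8, Cd5l had 18 UMIs in 5 flox/flox members, 9 of them in 1, and Marco had 0. The 4 bile duct markers had 22 UMIs in 12 flox/flox members, a ratio of 1.70 (0.97 to 2.37), with Krt19 at 0, beside 3 UMIs in 1 wt/flox member and 0 in wt/wt members. The part of these cells in the results was not tested. Of the other genes named for their ratio, Mfge8 (2.48; 1.84 with depth weighting), Snhg1 (1.45), Uxt (1.36), Emc4 (1.22), A2ml1 (1.22, 0.93 to 1.49, 123 UMIs in 71 members), Ahnak (1.19) and Cela1 (1.17) were at least 2-fold higher, and App (1.34) had a ratio of -0.07 with depth weighting. At the low end stood the immunoglobulin genes Igkc (4 UMIs in flox/flox members and 3231 in zero barcodes), Igha (2 in members, 1290 in zero barcodes), Jchain (0 in members, 808 in zero barcodes), Iglc1 (0 in members, 471 in zero barcodes) and Iglc2 (0 in members, 466 in zero barcodes). The haemoglobin genes followed, with Hbb-bs at 1 UMI in members and 1087 in zero barcodes and Hba-a1 at 0 in members and 333 in zero barcodes. Few zero barcodes carried these UMIs: 10 held 92.8% of those of Igkc, and those of Hbb-bs lay in 7. In wt/flox 1 member held 214 UMIs of Hbb-bs.

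The libraries were also compared for each kind of barcode. Over 6979 genes measured in all 3 libraries, 2.69% were at least 2-fold higher in flox/flox than in wt/flox zero barcodes and 2.22% in flox/flox than in wt/wt zero barcodes, with medians of 0.02 and 0.04. Of 42 interferon-stimulated genes outside the rule among them, 14 were at least 2-fold higher in flox/flox over wt/flox zero barcodes, with a median log2 ratio of 0.65, and 23 over wt/wt, with a median of 1.08. Barcodes with 0 UMIs of the 8 rule genes thus still differed between libraries in this list, with Trim30a at 1.76 over wt/flox and 3.35 over wt/wt and Ifi27 at 1.89 over wt/flox and 2.89 over wt/wt. Between flox/flox and wt/flox members, Mt1, a metallothionein gene, stood at 3785 CPM in flox/flox, with 6 UMIs in wt/flox, a log2 ratio of 3.45 (2.33 to 4.90), beside 3.58 between zero barcodes. Lpin1, a phosphatidate phosphatase gene, gave 2.97 (1.69 to 6.60), beside 3.38, and Gstm1 gave 2.67 (1.99 to 3.46), beside 1.32. Set against wt/wt, the ratios were smaller: Mt1 stood at 3785 CPM in flox/flox members and 2772 CPM in wt/wt members (0.45, -0.11 to 1.07; -0.16 between zero barcodes), Lpin1 gave 0.34 (-0.55 to 1.41; 1.01 between zero barcodes) and Gstm1 1.23 (0.66 to 1.86; 0.79 between zero barcodes). In wt/flox zero barcodes Mt1 stood at 233 CPM, below the 2794 CPM of flox/flox and the 3127 CPM of wt/wt zero barcodes. On the lower side, Tmsb4x (-2.81, -3.18 to -2.44) and Malat1 (-1.83) were higher in wt/flox members, and between zero barcodes these stood at 0.11 and 0.43. In wt/flox, 1 member held 29 of the 83 UMIs of Tmsb4x, and 1 member held 146 of the 315 of Malat1. Of the 13 wt/flox members, 8 held a UMI of the 33 further markers, and their part was not tested. The 214 UMIs of Hbb-bs came from the single member named above. With 13 members in wt/flox and 7 in wt/wt, these values describe few barcodes of 1 liver each.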

How the data were processed

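Liver cells were profiled with the 10x 3' v3.1 kit. The deposited matrix holds raw UMI counts per gene and barcode for 3 libraries of exactly 10000 barcodes each (at least 636 UMIs in flox/flox, 721 in wt/flox and 727 in wt/wt), made with Cell Ranger 6.1.1, per the file headers, with Seurat and the build mm10 named in the submitters' processing notes. Barcodes were assigned to libraries by their suffix. Counts were summed over members and over zero barcodes of each library and scaled to CPM. Shares have exact Clopper-Pearson intervals, levels exact Poisson intervals and log2 ratios exact conditional binomial intervals, all at 95% and for counting error only. Counts under 3 were set to 3 in ratios.

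Measured genes had at least 100 UMIs in flox/flox hepatocyte barcodes, or 300 over the 3 libraries for comparisons between them. The members, gene lists and rules were chosen with earlier results of these data known. Outside the list genes, the 20 highest and 10 lowest genes by ratio in libraries of at least 50 members were named (at least 20 UMIs, or 20 expected), and 10 each way between libraries; genes of other lists were picked as examples after their values were seen. Depth was handled by thinning to 1000 UMIs or by weighting zero barcodes to the members' depth. How the 10000 barcodes were chosen is not given in the sources used here, and neither empty droplets nor doublets were removed here. In all, 158 barcodes had a sequence that also occurred in another library. One gene of the interferon list is not reported here by itself. The steps were tested on simulated data. Sums used pandas 2.3.3 and numpy 2.4.6 in Python 3.11.15, intervals scipy 1.17.1 and plots matplotlib 3.10.9.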

Additional observations from a re-analysis of the deposited data

Results flagged for a closer look

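For 7 gene lists the summed level in members over zero barcodes pointed one way in the library labelled flox/flox and the other way in another library, with intervals that exclude 0 on both sides. These differences were not tested, and each library is 1 liver. The MHC class I list gave a log2 ratio of -0.13 in flox/flox, 0.69 in wt/flox and 0.63 in wt/wt. The acute phase list gave 0.11 in flox/flox, -0.48 in wt/flox and -0.63 in wt/wt, and in flox/flox 129 of the 833 Hamp UMIs came from 1 member. The median over its 19 measured genes was -0.40 in flox/flox, opposite in sign to the sum. The nuclear-retained RNA list gave -0.66 in flox/flox, 1.21 in wt/flox and 0.38 in wt/wt. In wt/flox 182 of its 374 member UMIs lay in 1 member, and in wt/wt 50 of 107. The fatty acid and sterol list gave 0.16 in flox/flox and -0.62 in wt/flox, and -0.18 in wt/wt with an interval of -0.38 to 0.01. Its median over 24 genes was -0.17 in flox/flox, again opposite in sign to the sum. The proliferation list gave -0.61 in flox/flox (-1.12 to -0.15, 38 UMIs) and 2.56 in wt/flox (1.75 to 3.27, 16 UMIs, 10 of them in 1 member). The list of T and NK cell markers gave -1.996 in flox/flox (-3.63 to -0.76, 5 UMIs) and 3.30 in wt/flox (2.23 to 4.19, 10 UMIs, 7 of them in 1 member). The erythroid list gave -4.87 in flox/flox, where 1 UMI was set to 3 (-11.75 to -3.97), and 1.24 in wt/flox (1.06 to 1.401), where all 292 UMIs lay in 1 member. The wt/flox values come from 13 members, 8 of which held a UMI of the 33 further markers of other cells, and the part of those barcodes in these values was not tested. Outside the hepatocyte barcodes, 10.9% of the non-hepatocyte barcodes of flox/flox held at least 3 rule UMIs (9.12 to 12.9), above the 0.662% in wt/wt (0.243 to 1.44).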

How the results depend on the processing

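The share of members moved with the rule. At 2 or more rule UMIs it was 9.01% in flox/flox, 0.645% in wt/flox and 0.223% in wt/wt, and at 5 or more 0.346% in flox/flox and 0.0691% in wt/flox. Thinning gave 1.88% in flox/flox and 0.182% in wt/wt, and the 6 marker genes alone gave 1.35% in flox/flox. The log2 ratio of the held-out interferon list stayed above 0 in all 3 libraries under each alternative run. At 2 or more UMIs it was 0.24 in flox/flox and 1.103 in wt/flox, and at 5 or more 0.87 and 2.21. Median-of-ratios scaling gave 0.35 in flox/flox, 1.03 in wt/flox and 0.57 in wt/wt. Without members of 8 or more UMIs it was 0.34 in flox/flox and 1.11 in wt/wt, where the single such member is the one with the most rule UMIs, so that leaving that member out also gave 1.11. Those members alone gave 1.103 in flox/flox, 2.44 in wt/flox and 2.96 in wt/wt. The flox/flox median, 0.33 as reported, was 1.21 at 5 or more UMIs and 1.69 for members of 8 or more alone. The count of 7 genes at least 2-fold higher became 2 at 2 or more UMIs, 25 at 5 or more, 36 for members of 8 or more and 18 of 64 genes without the minimum of 100 UMIs. Between members, flox/flox over wt/flox turned to 0.23 under median-of-ratios scaling, and flox/flox over wt/wt became 1.00 under it and 0.35 without the wt/wt member with the most rule UMIs. That scaling rests on genes seen in both groups, which by construction lowers the median ratio of flox/flox members over the few members of another library. For members over zero barcodes, the genes seen in both numbered 3983 in wt/flox and 2714 in wt/wt. In libraries of few members this raises the median ratio of members over zero barcodes by construction. App turned to -0.0735 with depth weighting. The alternatives without members of 8 or more UMIs, with them alone, without the top member, and without the 33 markers for single genes were chosen after seeing the data. No paired analysis was possible because each genotype has 1 library.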

Other observations

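Members differed in which rule gene led. In flox/flox, 1 member of 1534 UMIs held 7 rule UMIs, all of Rsad2, and in wt/flox 1 member of 2010 UMIs held 5, all of Rsad2. Its neighbour Cmpk2 had 0 UMIs in both. The wt/wt member with 6 rule UMIs, 4 of Ifit3 and 2 of Rsad2, held 1 UMI of the 66 interferon-stimulated genes outside the rule.

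None of the 8 flox/flox members with Cxcl10 held a UMI of Spp1, which was seen in 10 members. Sets of 8 and 10 among 197 members would often share no barcode, so nothing is read from this. Among members, Cxcl9 had 14 UMIs in 6 flox/flox members and 15 UMIs in 3 wt/flox members, 11 of these in 1.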
